A study of Caenorhabditis elegans with 2 samples.

Results

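The 8 core genes of the insulin signalling pathway of Caenorhabditis elegans (daf-2, age-1, pdk-1, akt-1, akt-2, sgk-1, daf-18 and daf-16) were examined for binding of the nuclear hormone receptor NHR-237. They were taken by gene name from the WBcel235 annotation, where all 8 matched 1 gene each out of 19973 protein-coding genes on the nuclear chromosomes. The measurement was ChIP-seq, which sequences the DNA that is immunoprecipitated with a protein, in intact L1 larvae, the first larval stage, with both sexes pooled and the age unknown. The animals were of strain OP228, which has the genotype unc-119(ed3) III; wgIs228, where wgIs228 is an integrated transgene that makes NHR-237 fused to eGFP. Both samples carry the transgene and the unc-119 mutation. They are 2 biological replicates of a single group, so there is no comparison between conditions, and no untagged strain or input was analysed here. The signal is an average over all cells of the larvae, and binding in few cells cannot be told apart from weak binding in many.

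Insulin-like peptides act on the receptor tyrosine kinase DAF-2, which works through the phosphoinositide 3-kinase AGE-1 and the kinases PDK-1, AKT-1, AKT-2 and SGK-1. The lipid phosphatase DAF-18 opposes AGE-1. When the pathway is active the FOXO transcription factor DAF-16 is kept out of the nucleus, and when it is low DAF-16 enters the nucleus and turns on genes of stress resistance, dauer formation, survival of starved L1 larvae and long life.

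Each list of the study gives regions with a signal value, a peak caller's score whose scale the authors do not state. Values were therefore compared only within a list, by rank (1 is the strongest) and by the rank as a percentage of the list. The list of replicate 1 held 21745 regions with a median signal of 12.2, that of replicate 2 held 25720 with a median of 11.8, and that of both replicates pooled held 7699 with a median of 29.0. The list that passed the irreproducible discovery rate (IDR) threshold, which is meant to keep regions that rank alike in both replicates, held 970 with a median of 74.0. Not every IDR region had an overlapping region in both replicate lists. The number of reads is unknown, and the replicate lists reach down to weak regions, so that the 40.7% of replicate 1 regions that overlapped a replicate 2 region includes overlaps at low signal. The pooled list is labelled as peaks and background given as input to IDR. Regions with -log10 q of at least 2 numbered 970 in the IDR list, 1072 in the pooled list, 1213 in replicate 1 and 846 in replicate 2. No q limit was set for the main counts, so a summit counted outside the IDR list can be background. A gene was counted as having a promoter summit when one lay from 1000 bp upstream to 200 bp downstream of any of its transcript starts. A summit elsewhere between the gene's ends was counted to the gene body.

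The IDR list placed NHR-237 at akt-2 and at pdk-1. The akt-2 summit lay upstream of the gene, and the pdk-1 summit lay inside an intron. The sequences of both windows are shown because they are the places at which both replicates gave a strong region. The window upstream of akt-1, the close relative of akt-2, is shown beside them as the place of a region that ranked high in replicate 1 only. All 3 are the plus strand of ce11 (WBcel235) from the RefSeq sequence, 300 bp around the IDR or pooled summit, at chrX:14146804-14147103 for akt-2, chrX:1323045-1323344 for pdk-1 and chrV:10247989-10248288 for akt-1. All 3 genes are on the plus strand too. Capitals mark matches to AGGTCA, the half-site that many nuclear receptors bind, and to GAGAGA, each on either strand.
akt-2: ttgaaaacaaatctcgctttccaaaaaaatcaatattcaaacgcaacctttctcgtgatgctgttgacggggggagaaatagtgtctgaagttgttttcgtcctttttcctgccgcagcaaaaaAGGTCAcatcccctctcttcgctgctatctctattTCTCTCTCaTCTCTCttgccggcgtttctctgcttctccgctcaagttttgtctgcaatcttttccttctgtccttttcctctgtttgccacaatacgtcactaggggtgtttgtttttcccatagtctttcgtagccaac
pdk-1: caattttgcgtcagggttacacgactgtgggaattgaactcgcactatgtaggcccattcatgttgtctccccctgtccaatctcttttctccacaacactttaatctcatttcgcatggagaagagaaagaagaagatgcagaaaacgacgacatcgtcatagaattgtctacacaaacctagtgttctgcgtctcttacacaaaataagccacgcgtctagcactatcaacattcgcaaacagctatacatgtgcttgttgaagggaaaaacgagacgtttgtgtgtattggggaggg
akt-1: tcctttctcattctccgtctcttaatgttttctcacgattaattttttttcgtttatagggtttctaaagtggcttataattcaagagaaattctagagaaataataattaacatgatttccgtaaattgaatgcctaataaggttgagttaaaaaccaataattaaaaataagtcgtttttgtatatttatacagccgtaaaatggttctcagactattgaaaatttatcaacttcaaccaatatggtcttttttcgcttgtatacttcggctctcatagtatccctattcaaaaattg

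In the akt-2 window AGGTCA began 26 bp before the summit on the plus strand, and GAGAGA had 3 matches on the minus strand, beginning 9, 11 and 18 bp after the summit, of which the first and the second overlap. Within 150 bp of the summit AGGTCA was present in 5.57% of the 970 IDR windows and in 7.36% of the 7699 pooled windows. GAGAGA was present in 51.8% and 28.7%. The other motifs searched on both strands were GTAAACA, the core of the element that DAF-16 binds (4.64% of IDR windows), and TGATAAG, an element near many genes of the DAF-16 response (1.96%). The pdk-1 and akt-1 windows held none of the 4 motifs, and the akt-2 window held only the marked ones. Guanine and cytosine made up 44.2% of the bases within 150 bp of the summit at akt-2 and likewise 44.2% at pdk-1, against a median of 40.9% over IDR windows. At akt-1 they made up 28.9%, below the lower quartile of pooled windows (30.2%).

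Downstream of the receptor, AKT-2 and AKT-1 are protein kinases that phosphorylate DAF-16. At akt-2 (chromosome X, 14147700 to 14152070, WBGene00000103) the IDR peak ran from 14146772 to 14147135, with its summit 746 bp upstream of the only annotated start. That summit lies in intergenic sequence 2065 bp beyond the end of ceh-89, a homeobox gene on the same strand, so no other protein-coding gene has it in its promoter. The signal was 42.1 in replicate 1 (rank 496, the top 2.28% of the list) and 30.5 in replicate 2 (rank 683, 2.66%). Both replicates thus placed the region near the top of their lists, with summits 53 bp apart. In the pooled and IDR lists its signal was 75.9 (rank 461), close to the IDR median of 74.0. Since the summit is 746 bp from the start, it falls outside a promoter taken as 500 bp upstream.

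A weaker region lay beside it, nearer to the start of akt-2. Its summit was 575 bp upstream in replicate 1 (signal 17.1, rank 3642, 16.7% of the list) and 523 bp upstream in replicate 2 (9.76, rank 20780, 80.8%). The pooled list had it at rank 4861 and the IDR list did not hold it. Replicate 2 had 2 further regions near the end of the gene, 4254 bp downstream of the start (signal 16.3, rank 4514) and 3364 bp downstream (9.23, rank 23368), neither of which had a replicate 1 region on it.

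At akt-1 (chromosome V, 10248905 to 10252845, WBGene00000102) the region upstream ranked high in replicate 1 only, and the replicates placed it differently. In replicate 1 the summit was 841 bp upstream of the outermost start with a signal of 20.9 (rank 2061, 9.48% of the list). Replicate 2 had a region 766 bp upstream with a signal of 9.34 (rank 22833, 88.8%) and another 967 bp upstream with 11.5 (rank 13644, 53.0%). So the region stood near the top of one list and below the median of the other. The pooled list held it at rank 3483 of 7699 (signal 29.98), with -log10 q of 0.224 against 2.49 for akt-2. That summit is also 882 bp upstream of C12D8.25, a noncoding RNA gene. At the other end of akt-1, replicate 1 had a region with a signal of 9.65 (rank 20351), which overlapped a replicate 2 region whose summit lies beyond the gene (13.1, rank 9467).

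PDK-1 is the kinase that activates AKT-1, AKT-2 and SGK-1. At pdk-1 (chromosome X, 1321344 to 1327986, WBGene00003965) the IDR peak ran from 1323013 to 1323376. Its summit lay in the second of 10 introns, which is 2051 bp long, 1842 bp downstream of the nearer of 2 starts that are 9 bp apart. The signal was 65.8 in replicate 1 (rank 180, the top 0.828% of the list) and 31.3 in replicate 2 (rank 633, 2.46%). Both replicates placed it high, with summits 3 bp apart, and replicate 1 ranked it higher. Its pooled signal of 97.1 (rank 278) was the highest of any region at the 8 genes. The promoter of pdk-1 held no summit in any of the 4 lists. With 2000 bp upstream in place of 1000 bp, it held one in the pooled list and both replicate lists, but not in the IDR list. Elsewhere in the gene replicate 2 alone had weak regions, 499 bp downstream (9.47, rank 22165) and 5842 bp downstream (11.4, rank 14172) of the nearer start.

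**Figure D1:**
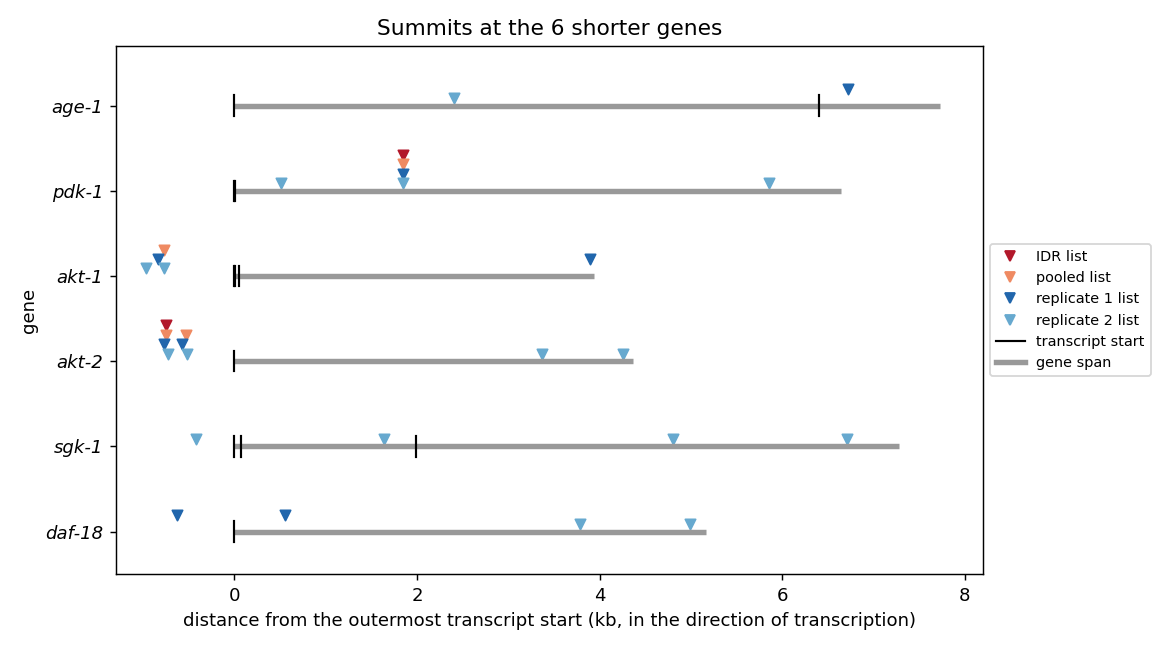
Summits at the 6 shorter genes, by distance in kb from the outermost transcript start in the direction of transcription (x) and by gene (y), with triangles coloured by list, grey bars for the gene span and black ticks for transcript starts. All 4 lists meet at pdk-1 about 1842 bp into the gene and at akt-2 about 746 bp upstream, while age-1, sgk-1 and daf-18 have summits of single replicates only.

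Both genes with an IDR peak are on chromosome X, as is sgk-1, so 3 of the 8 are X-linked. On X, 3.48% of 2731 protein-coding genes had an IDR summit in the promoter and 0.696% one in the gene body. The next IDR summit along the chromosome from that of pdk-1 was 21859 bp away and is the promoter peak of ins-39, an insulin-like peptide gene. From that of akt-2 the next was 22856 bp away.

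SGK-1 is a kinase related to AKT, and AGE-1 makes the lipid that recruits AKT and PDK-1 to the membrane. At sgk-1 (X, 16254842 to 16262122, WBGene00004789) replicate 1 had no region in the promoter or gene body. With a promoter of 2000 bp upstream it had one. Replicate 2 had 4, with signals from 9.95 to 12.5, the strongest at rank 11001 of 25720, in the first intron and 352 bp upstream of the innermost start. At age-1 (II, 11519328 to 11527054, WBGene00000090) no list had a promoter summit. Replicate 1 had a region in its last intron, 318 bp downstream of the inner start (signal 15.5, rank 5063), and replicate 2 one elsewhere in the gene (9.23, rank 23384). Neither gene had a pooled region, and at neither did regions of the replicates overlap.

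The same was found for daf-18 (IV, 420011 to 425177, WBGene00000913). Replicate 1 had a region 626 bp upstream of its only start (signal 11.3, rank 13500, 62.1% of the list) and one in the second intron (9.63, rank 20468). Replicate 2 had 2 regions in the gene body, with signals of 10.9 and 9.30. None of these overlapped between the replicates, and all 4 ranked below the median of their lists.

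The receptor gene daf-2 (III, 2994514 to 3040846, WBGene00000898) spans 46333 bp, longer than 99.9% of protein-coding genes, and has 7 annotated starts. Its strongest region was in the first intron, which is 11981 bp long, 4655 bp downstream of the outermost start, with a signal of 28.3 in replicate 1 (rank 1080, 4.97% of the list, -log10 q 2.29). Replicate 2 had no region there, and the pooled list had it at rank 2728 (signal 32.7, -log10 q 0.385). The pooled summit also lies in an exon of linc-143, a long noncoding RNA gene inside that intron, 1383 bp downstream of its start. Promoter summits differed between the replicates. That of replicate 2 was 465 bp upstream of the outermost start (signal 15.03, rank 5988, 23.3%), and that of replicate 1 was 378 bp upstream of the sixth start, from which the transcript Y55D5A.5f.1 begins (9.46, rank 21314, 98.0%). Besides these, replicate 1 had 5 and replicate 2 had 10 regions in the gene body, of which 2 pairs overlapped. Replicate 1 ranked them at 17234 and 8182, and replicate 2 at 20961 and 22340, so neither pair was strong in both.

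The output of the pathway, daf-16 (I, 10750498 to 10776703, WBGene00000912), spans 26206 bp, longer than 99.5% of genes, with 7 starts for 11 transcripts. It had no IDR peak and 7 pooled regions, the most of the 8 genes, and 4 of its regions overlapped between the replicates. The strongest in the pooled list was in the eighth intron, 1615 bp upstream of the start of the transcript R13H8.1a.1, at rank 1427 (signal 43.2, -log10 q 1.27). It had a signal of 31.5 in replicate 1 (rank 859, 3.95% of the list) and 16.8 in replicate 2 (rank 3993, 15.5%), with summits 153 bp apart. It was thus among the 970 strongest regions of one replicate and not of the other. Its window held 20 matches to GAGAGA, many of which overlap in runs of GA repeats.

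A region in the fourth intron of daf-16, which is 11914 bp long and ends before the group of starts used by R13H8.1b.1 and R13H8.1c.1, showed the opposite order. Its signal was 14.2 in replicate 1 (rank 6767, 31.1%) and 22.5 in replicate 2 (rank 1475, 5.73%), and the pooled rank was 2289. The pooled summit was 1266 bp upstream of those starts, and its window held 1 AGGTCA and 1 GAGAGA. In the same intron replicate 1 had a region with a signal of 28.1 (rank 1097, 5.04%), which replicate 2 did not overlap and the pooled list held at rank 4191, 131 bp upstream of the noncoding RNA gene R13H8.4. Upstream of the whole gene, the promoter summit was 456 bp from the outermost start in replicate 1 (16.5, rank 4123, 19.0%) and 616 bp from it in replicate 2 (14.3, rank 7057, 27.4%), with a pooled rank of 2285 (34.9). Both replicates placed this last region above the median of their lists, and neither had it among its 970 strongest. The pooled summit is also 149 bp upstream of the noncoding RNA gene H36N01.4. The inner starts of daf-16 had promoter summits in a single replicate each, 246 bp upstream of R13H8.1a.1 in replicate 1 (14.6, rank 6219) and, in replicate 2, 23 bp upstream of the fifth start (11.9, rank 12639) and 225 bp upstream of the seventh (11.3, rank 14339).

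**Figure D2:**
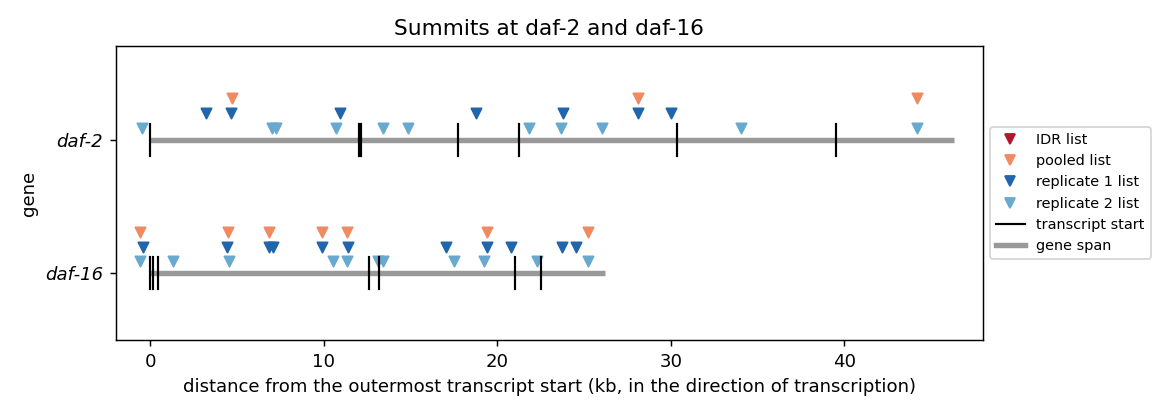
Summits at daf-2 and daf-16, by distance in kb from the outermost transcript start in the direction of transcription (x) and by gene (y), with triangles coloured by list, grey bars for the gene span and black ticks for transcript starts. The 7 pooled regions of daf-16 are spread along the gene, daf-2 has 3 pooled regions, and neither gene has an IDR peak.

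Of the 8 genes, 1 had an IDR summit in the promoter (akt-2; 12.5%, 95% Clopper-Pearson interval 0.316 to 52.7), against 4.66% of all protein-coding genes. In the gene body it was also 1 (pdk-1; 12.5%), against 0.531%. The interval of 1 among 8 holds both of these background shares, so no difference from other genes can be read from either count. In all, 2 genes had an IDR summit in the promoter or the gene body (95% interval 3.19 to 65.1%), against 5.09%. In the pooled list 3 had a promoter summit (akt-1, akt-2 and daf-16; 37.5%, 8.52 to 75.5) against 18.4%, and 3 a summit in the gene body (daf-2, pdk-1 and daf-16) against 10.3%.

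In the list of replicate 1, 5 genes had a promoter summit (62.5%, 24.5 to 91.5) against 35.0% of all genes, and 6 had one in the gene body (34.9 to 96.8%) against 32.3%. In that of replicate 2, 5 had a promoter summit (62.5%, 24.5 to 91.5) against 39.4%, and 7 had one in the gene body (87.5%, 47.3 to 99.7) against 34.0%. The intervals hold the background shares for the promoters, and lie above them for the gene bodies, which are longer in these genes than in most. Regions that overlapped between the replicates were found in the promoters of akt-1, akt-2 and daf-16 (3 of 8, against 18.2%) and in the gene bodies of daf-2, pdk-1 and daf-16 (3 of 8, against 11.4%). The intervals cover counting error only, the genes were not drawn at random, and no test was made.

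**Figure D3:**
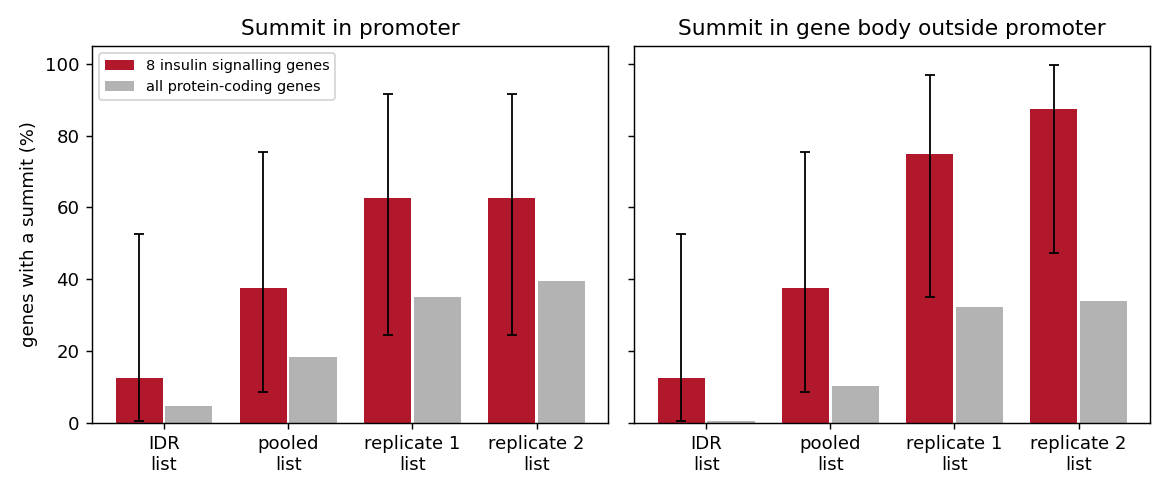
Share of genes with a summit in the promoter (left) or in the gene body outside it (right), in percent (y), in each list (x), for the 8 insulin signalling genes (red, bars with 95% Clopper-Pearson intervals) and all protein-coding genes (grey). The red bars run from 12.5% in the IDR list to 87.5% for gene bodies in replicate 2, with intervals that are wide for 8 genes.

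The 8 genes are long and several have many starts, which gives them more sequence in which a summit can fall. Their promoter windows had a median of 1827 bp against 1201 bp over all genes, and their gene bodies outside promoters 6066.5 bp against 1713 bp. Per kb, the gene bodies of the 8 genes held 0.205 summits in replicate 1 (0.185 over all gene bodies) and 0.302 in replicate 2 (0.209). Promoters held 0.306 (0.271) and 0.437 (0.319). These densities count summits, whereas the shares above count genes with at least 1 summit, so they are unlike measures. Whether gene length accounts for the higher shares was not tested. In the pooled list the densities were 0.108 against 0.0478 in gene bodies and 0.175 against 0.122 in promoters, and 7 of the 14 pooled regions were at daf-16. In the IDR list they were 0.0108 against 0.00224 in gene bodies and 0.0437 against 0.0255 in promoters, from 1 summit each at the 8 genes. Some summits were near the edge of the promoter window. The outermost one inside it was that of akt-1 in replicate 2, 967 bp upstream. In the gene bodies, the nearest one past the downstream edge was a daf-16 region 265 bp downstream of a start in replicate 2. Past the upstream edge it was a daf-2 region 1131 bp upstream of a start in replicate 1. Intergenic summits beyond the window were not included.

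The replicates overlapped at a part of these places, and the shares are set beside those of the whole lists. Replicate 1 had 26 regions at the 8 genes and replicate 2 had 38. Of those of replicate 1, 11 (42.3%) overlapped a region of replicate 2, against 40.7% of the whole list, and of those of replicate 2, 11 (28.9%) overlapped one of replicate 1, against 35.5%. Each of the 11 replicate 1 regions was paired with a single replicate 2 region. Those upstream of akt-1 and akt-2 also overlapped a further replicate 2 region, which is left out of their pairs. Among these 11 pairs, the summits were 3 to 236 bp apart with a median of 117 bp. In only 2 pairs, at pdk-1 and akt-2, were both regions among the 970 strongest of their lists. The same share over the whole lists is not given here. Regions with -log10 q of at least 2 numbered 5 of 26 at the 8 genes in replicate 1 (pdk-1, akt-2, daf-2 and daf-16 with 2), against 1213 of 21745 in the whole list. In replicate 2 they numbered 2 of 38 (pdk-1 and akt-2), against 846 of 25720.

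**Figure D4:**
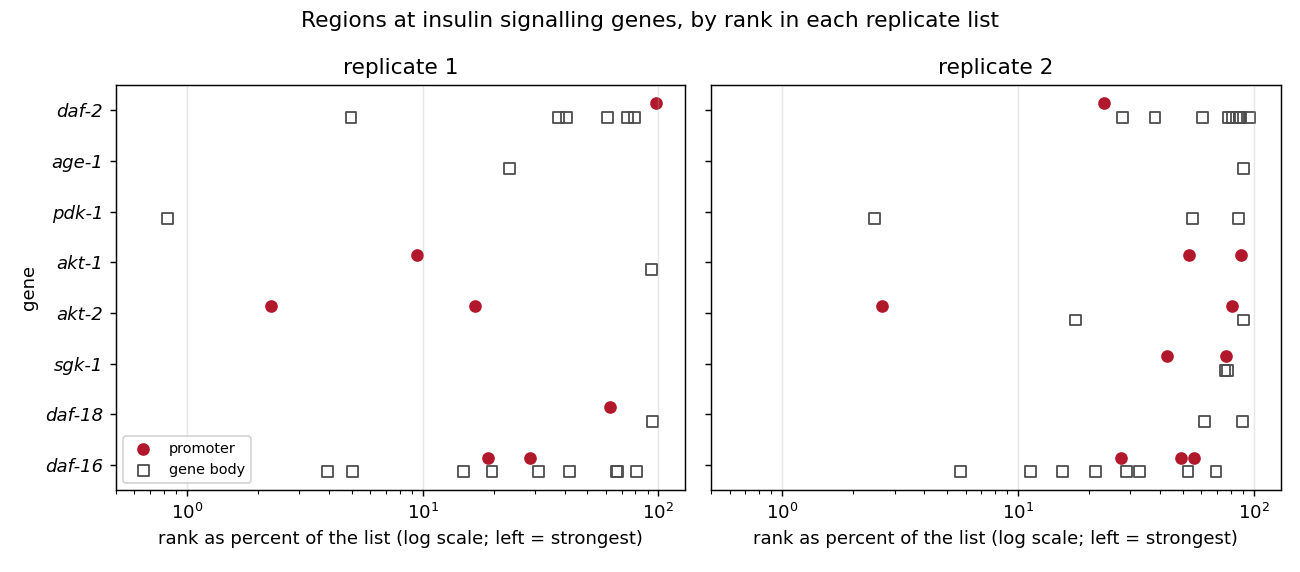
Rank of every region at the 8 genes as a percentage of its list (x, log scale, strongest on the left) by gene (y), in replicate 1 (left panel) and replicate 2 (right panel), with filled circles for promoters and open squares for gene bodies. The pdk-1 gene body region (0.828% and 2.46%) and the akt-2 promoter region (2.28% and 2.66%) lead both panels, while the daf-2 region at 4.97% in replicate 1 has no overlapping region in replicate 2.

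**Figure D5:**
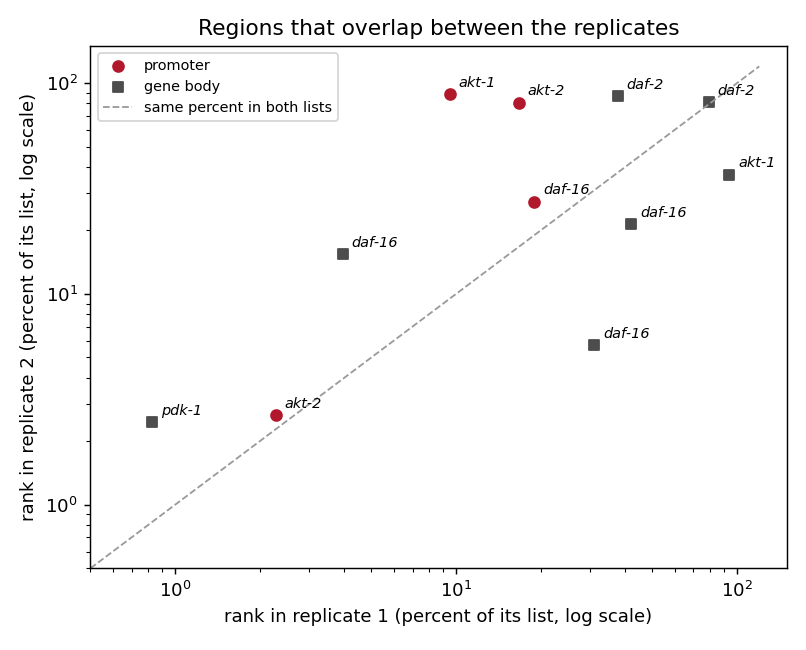
The 11 pairs of overlapping regions, by rank in replicate 1 (x) and in replicate 2 (y), each as a percentage of its list on a log scale, with circles for promoters, squares for gene bodies and a dashed line where both percentages are equal. A single replicate 2 region is plotted for each replicate 1 region. The strongest pdk-1 and akt-2 points lie at the lower left, and the akt-1 promoter point (9.48% and 88.8%) is among those far from the line. The same akt-1 region of replicate 1 also overlapped a replicate 2 region at 53.0%, which is not plotted.

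The genes whose strongest promoter IDR peak ranked most like that of akt-2 were sought among the 924 other genes with such a peak in both replicate lists, by the Euclidean distance of the log2 ranks in the pooled list and both replicate lists. They were fic-1 (distance 0.0953; ranks 443, 471 and 676), vha-16 (0.109; ranks 440, 468 and 675), a V-ATPase subunit gene, and sor-3 (0.158; ranks 451, 552 and 678). For akt-2 the ranks were 461, 496 and 683. This is a likeness of height over 2 samples and their pool.

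Other genes of the pathway were counted in the same way, from lists made by gene name. Over all protein-coding genes, 4.66% had an IDR promoter summit and 18.4% a pooled one. These shares are the background for each list below. Of 39 insulin-like ligand genes, 1 had an IDR promoter summit (ins-39) and 4 had a pooled one. The ins-39 peak (X, 1344872 to 1345235) had its summit 633 bp upstream of the start, with a signal of 104 in replicate 1 (rank 47) and 81.2 in replicate 2 (rank 52). It stood higher in both lists than any region at the 8 core genes. Of 21 adaptors and regulators, 1 had an IDR promoter summit and 2 a pooled one. The bound gene was ftt-2, which encodes a 14-3-3 protein that holds phosphorylated DAF-16 in the cytoplasm, with signals of 53.0 (rank 314) and 54.2 (rank 158).

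Of 11 nuclear factors grouped with DAF-16 here, 3 had an IDR promoter summit and 5 a pooled one, against 4.66% and 18.4% of all genes. The grouping does not mean that each of them binds DAF-16. The 3 with an IDR promoter summit were cbp-1, a CBP/p300 acetyltransferase (ranks 122 and 114 in replicates 1 and 2), skn-1, the Nrf-like stress factor (ranks 156 and 255), and hlh-30, the TFEB-like factor (ranks 792 and 1683). A further IDR summit lay in an intron of skn-1 (ranks 625 and 497). Of 11 genes of the TOR branch, 1 had an IDR promoter summit (rheb-1, a GTPase that activates TOR, ranks 604 and 232) and 6 a pooled one. In the TOR list 2 further genes had an IDR summit in an intron, let-363, the TOR kinase (ranks 456 and 1177), and aak-2, the catalytic subunit of AMP-activated kinase (ranks 228 and 632). Over all genes, 0.531% had an IDR summit in the gene body outside the promoter. Of 17 known DAF-16 target genes such as sod-3 and mtl-1, none had an IDR summit in the promoter or gene body, against 5.09% of all genes. A pooled promoter summit was found at 2 of them, against 18.4%. The lists are small and were chosen with results of these data known, so their counts describe these genes and test nothing.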

How the data were processed

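ChIP-seq regions came from whole L1 larvae, 2 biological replicates with a DNA size range of 150 to 350 bp, per the labels. The authors deposited lists on ce11 and ce10. The ce11 lists were used, and the ce10 lists were not used here because coordinates were not converted. Per the readme files deposited with them, regions were called for each replicate and for both pooled, in each case against a control, and these 3 lists gave the IDR list. The name of the aligner or caller is not given in the sources used here, nor is the threshold. The labels describe the eGFP fusion as the target but put the factor's own name in the antibody field. The deposited signal value is a score with no stated scale. In the narrowPeak format the deposited q-values are written as -log10 q.

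Genes came from Ensembl release 115 (WBcel235, the coordinates of ce11), and bases from RefSeq. All regions lay within the chromosome lengths. Positions are counted from 1. Summits were assigned with Python 3.11.15, pandas 2.3.3 and numpy 2.4.6, and intervals with scipy 1.17.1. Counting was checked on simulated summits. Overlap was at least 1 bp. Motifs were exact letters within 150 bp of a summit.

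The members and lists were chosen with earlier results of these data known. Named genes were the 8 members, listed pathway genes with an IDR promoter summit, genes sharing a named region, and the 3 genes ranking most like akt-2. The gene body peaks of let-363 and aak-2, the target genes sod-3 and mtl-1, and the neighbouring noncoding genes and ceh-89 were named after their values were seen. The symbol dod-8 matched no gene.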

Additional observations from a re-analysis of the deposited data

How the results depend on the processing

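Of 45 alternative counts of the 8 genes, over 9 results, 30 stayed within 1.5 times the value reported and 15 did not. With a promoter of 500 bp upstream the genes with a promoter summit numbered 0 in the IDR list, 0 in the pooled list, 2 in replicate 1 and 3 in replicate 2 (3.78%, 13.8%, 25.5% and 28.3% of all genes). The promoter summits of akt-2, akt-1 and daf-18 and the pooled one of daf-16 lie farther out. With only regions of -log10 q of at least 2, promoter counts were 1 in the pooled list (5.10% of all genes) and 1 in each replicate (5.39% and 4.19%), akt-2 each time. Gene body counts were then 1 in the pooled list (pdk-1; 0.601%), 3 in replicate 1 (daf-2, pdk-1 and daf-16; 0.806%) and 1 in replicate 2 (pdk-1; 0.466%). With each replicate list cut to its 970 strongest regions, promoter counts were 1 and 1 (4.47% and 4.63% of all genes), and gene body counts 2 (pdk-1 and daf-16; 0.561%) and 1 (pdk-1; 0.566%). These settings test fewer regions or less sequence by construction. A promoter of 2000 bp upstream tests more sequence. The genes with a promoter summit then numbered 1 in the IDR list, 4 in the pooled list, 7 in replicate 1 and 6 in replicate 2. The shares of all genes were 6.06%, 25.1%, 48.4% and 53.7%. The genes gained were pdk-1 in the pooled and both replicate lists and sgk-1 in replicate 1. Taking the 970 strongest regions of a single replicate in place of the IDR list is the same calculation as cutting each replicate list to 970 regions. It repeats those counts and is no further check, although the 45 alternatives include it under both results. Set against the IDR list, akt-2 was the only promoter in either case. The gene body count ran from 1 without replicate 1 to 2 without replicate 2, where daf-16 joined pdk-1. The gene body counts under a q or list-length limit and without a replicate were added after the data were seen. Ordered by q with ties by signal, the pooled rank of akt-2 was 549 in place of 461, and 12 of 14 such ranks moved by at most a hundredth of their list or 1 place. No paired analysis was possible because there is a single group. Depth is unknown, so the absence of a region does not show absence of binding.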
